A study of Gallus gallus with 4 samples.

Results

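The genes described here make cholesterol and fatty acids. They were taken from a list of 36 gene symbols, and a gene was included where a probe set of the array is annotated with that symbol alone, which held for 33 of them among 13009 genes in all. IDI1, TM7SF2 and EBP were not named alone by a probe set and were not analysed here. The RNA came from tibiae of white leghorn chicken embryos of day 12 (E12, which is stage 38 of Hamburger and Hamilton) or day 14 (E14, which is stage 40), and 5 µg of it was labelled with biotin for each array. At each stage, purely transient cartilage of the epiphysis (TC), the cartilage that bone later replaces and the reference tissue of the study, was compared with a dissection of articular cartilage that still held some transient cartilage (TC+AC). Tissue from many dissections was pooled, no source used here gives the number of embryos, and there was 1 array without a replicate for each tissue at each stage, 4 in all. Articular cartilage was therefore never measured alone.

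Cells build sterols from acetyl-CoA through mevalonate, squalene and lanosterol, and build fatty acids from the same acetyl-CoA through malonyl-CoA, after which elongases and desaturases lengthen the chains and add double bonds. Both branches are controlled largely by the SREBP transcription factors, which the protein SCAP escorts out of the endoplasmic reticulum when sterols are scarce and which INSIG proteins hold back when sterols are plentiful. In cartilage, cholesterol is also attached to hedgehog proteins, which pace the growth plate, and inherited defects of several sterol enzymes disturb the growing skeleton in humans. The roles named below are known mainly from mammals, apart from those of fatty acid synthase and malic enzyme, which were also studied in chicken liver.

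The values are array intensities after quantile normalization, in arbitrary linear units, for the brightest probe set of each gene. A probe set was taken as above background where it exceeded the 95th percentile of that array's 541 virus probe sets, which lay between 15.6 and 24.6. The TC+AC array at E14 had the lowest deposited median, 13.1 against 20.6 to 23.1 on the others, and its 3' over 5' ratio, a measure of RNA quality, was 7.48 for beta-actin and 3.97 for EF1-alpha against at most 4.01 and 1.64 on the others. For GAPDH the ratio was 1.59 on that array, against 1.55 and 1.52 in TC at E12 and E14 and 1.18 in TC+AC at E12. All 10 cartilage markers were above background on 3 arrays and 9 of 10 on TC+AC at E12. The summed intensity of 7 hypertrophic markers was 6215 in TC and 719 in TC+AC at E12, and 5950 and 789 at E14. Of these, IHH was below background on all arrays and ALPL on all but TC at E12. MMP13 had 192 in TC and 307 in TC+AC at E12, and 457 and 296 at E14.

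Many of the genes were at their highest in transient cartilage at E14. This held for 13 of the 29 members that were bright enough to be tested (44.8%), against 30.3% of all 7805 genes tested. The 13 were the sterol genes SQLE, LSS, MSMO1 and DHCR7, the sensing and transfer genes INSIG1, INSIG2 and STARD4, the fatty acid genes AACS, FASN and ME1, and the chain-modifying genes ELOVL5, ELOVL6 and FADS2. After quantile normalization, 0 of the 6 tested genes of the mevalonate pathway were among them. The count depends on how the dim TC+AC array at E14 is scaled. It was 16 of 29 with arrays centred on their medians (27.9% of all genes) and 19 as deposited (33.1%). With arrays scaled on hybridization controls it was 27 (60.8%), and the 13 were among them each time. All 3 scalings lower that array against TC at E14, so they could hardly take any of the 13 out. Of the mevalonate genes, HMGCS1 was highest in TC at E14 under these 3 scalings, and ACAT2, MVK and FDPS were so on hybridization controls. With probe sets averaged, 15 of 27 tested members were highest in TC at E14 (33% of all genes). With the next brightest probe set, 12 of 26 were (32.6%). In each of these, 11 of the 13 were among them. In bulk tissue, fewer cells that express a gene and less of its RNA per cell cannot be told apart.

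**Figure D1:**
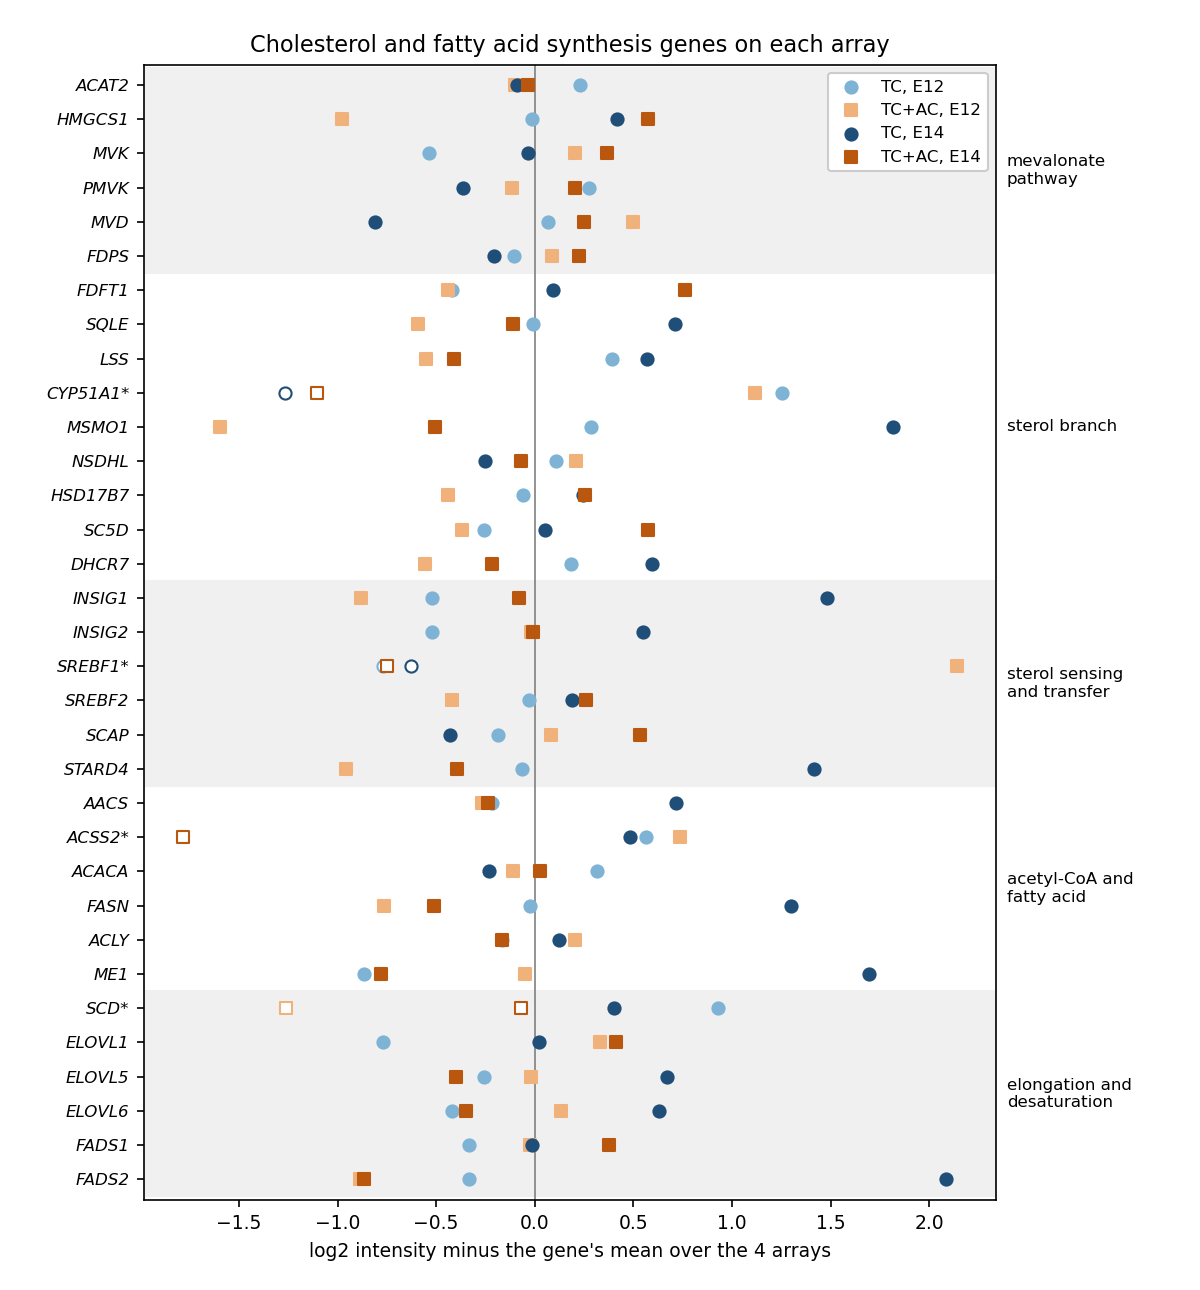
Log2 intensity of the 33 genes on each of the 4 arrays, as the difference from the gene's own mean (circles TC, squares TC+AC, pale E12, dark E14; open symbols at or below background; an asterisk marks the 4 genes not tested). After quantile normalization, the dark circles of TC at E14 lie furthest right for 13 of the 29 tested genes, including MSMO1, INSIG1, STARD4, FASN, ME1 and FADS2.

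In the sterol branch, MSMO1 was the gene with the clearest tissue difference, and TC+AC had less of it at each stage. MSMO1 is an oxidase in the removal of methyl groups from the sterol ring. It had an intensity of 1029 in TC and 281 in TC+AC at E12, and of 2969 in TC and 595 in TC+AC at E14. Both TC arrays were thus above both TC+AC arrays. It was 3.66-fold lower in TC+AC at E12 and 4.99-fold lower at E14, with a fitted log2 difference of -2.10 ± 0.50 (SE) and an adjusted p of 0.024 by limma's moderated model over the 4 arrays. MSMO1 was the only member past that test, 1 of 29 (3.45%) against 1.47% of all genes tested in either direction and 0.73% as lower in TC+AC. The model rests on 1 residual degree of freedom and takes most of its variance from the other genes. Its only probe set carries the suffix that Affymetrix gives to probes shared by several transcripts. The call was lost with all genes kept (adjusted p = 0.7), with values as deposited (0.29), with arrays scaled on hybridization controls (0.27), with probe sets averaged (0.1) and without the stage term (0.36). It was also lost on 3 arrays without TC+AC at E12 (adjusted p = 0.67, fitted log2 difference -1.56), without TC at E14 (0.52, -1.33) and without TC+AC at E14 (1, -2.64), fits on 3 arrays that hold no stage term, the first and last with a lone TC+AC array assumed to vary like the other groups and the middle one with a lone TC array. Without TC at E12 the value was -2.86 (adjusted p = 0.001). Over the 8 settings of scaling, filter, floor and probe set summary compared, the log2 difference at E12 lay between -1.95 and -1.69. At E14 it moved more, between -3.85 and -2.32.

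Of the neighbouring steps, SQLE, LSS and DHCR7 had the same order of tissues without passing the test. SQLE, the squalene epoxidase, had an intensity of 193 in TC and 129 in TC+AC at E12, and of 317 and 179 at E14. LSS, which closes squalene epoxide into lanosterol, had 125 and 65.2 at E12 and 142 and 72.0 at E14. DHCR7, which makes cholesterol from 7-dehydrocholesterol, had 121 and 72.4 at E12 and 161 and 92.0 at E14. For all of SQLE, LSS and DHCR7 both TC arrays were above both TC+AC arrays. Their fitted log2 differences by limma were -0.70 ± 0.50 (adjusted p = 0.58), -0.96 ± 0.50 (adjusted p = 0.41) and -0.78 ± 0.50 (adjusted p = 0.52), and none passed the test. One of 2 dimmer probe sets of LSS did not hold this order, since its tissue difference was -0.45 on the log2 scale at E12 and 0.20 at E14. FDFT1, squalene synthase, instead had its highest intensity in TC+AC at E14 after quantile normalization, though not as deposited, with 129 in TC and 127 in TC+AC at E12 and 184 and 292 at E14. The demethylation and reduction genes NSDHL and HSD17B7 and the desaturase gene SC5D had log2 tissue differences between -0.37 and 0.52. These are values of their brightest probe sets after quantile normalization. The other probe set of HSD17B7 had 43.7 in TC and 44.6 in TC+AC at E12 and 108 and 45.2 at E14. Its log2 tissue difference at E14 was thus -1.26, and it was highest in TC at E14.

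Among the genes of sterol sensing and transfer, INSIG1 and STARD4 stood highest in TC at E14. INSIG1, which retains SCAP in the endoplasmic reticulum and is itself a target of the SREBP factors, had an intensity of 98.2 in TC and 76.4 in TC+AC at E12 and of 393 and 133 at E14. The TC array was thus 4.0-fold higher at E14 than at E12. The TC+AC array was 1.75-fold higher after quantile normalization, a log2 difference of 0.80. In TC+AC it was -0.54 as deposited, 0.25 with arrays centred and -0.39 on hybridization controls. STARD4, a carrier of cholesterol between membranes, had 86.5 and 46.7 at E12 and 241 and 68.7 at E14. It was 2.79-fold higher at E14 in TC and, after quantile normalization, 1.47-fold higher in TC+AC. The log2 stage difference of STARD4 in TC+AC, 0.56 there, was -0.65 as deposited, 0.14 with arrays centred and -0.50 on hybridization controls. INSIG2, the INSIG1 relative that depends less on sterols, had 95.7 and 135 at E12 and 200.4 and 136 at E14. This made it 2.09-fold higher at E14 in TC, with a log2 difference of 0.01 in TC+AC after quantile normalization. In TC+AC, INSIG2 had -1.37 as deposited, -0.58 with arrays centred and -1.22 on hybridization controls. The escort gene SCAP and the factor gene SREBF2 were highest in TC+AC at E14 after quantile normalization, while under the other 3 scalings SREBF2 was highest in TC at E14, and SCAP was so on hybridization controls. SREBF2, whose product favours cholesterol genes, had 146 and 111 at E12 and 170 and 178 at E14, and SCAP had 52.8 and 63.8 at E12 and 44.6 and 86.8 at E14.

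In fatty acid synthesis, FASN and ME1 had the same peak. FASN, the synthase that assembles palmitate, had an intensity of 307 in TC and 184 in TC+AC at E12 and of 764 and 219 at E14. It was 2.49-fold higher at E14 than at E12 in TC. In TC+AC it was 1.19-fold higher after quantile normalization, a log2 difference of 0.25. The same difference of FASN was -1.15 as deposited, -0.35 with arrays centred and -0.99 on hybridization controls. ME1, the cytosolic malic enzyme that supplies NADPH to the synthase, had 109 and 193 at E12 and 642 and 116 at E14. Its TC value at E14 was 5.88-fold above that at E12, the largest such difference among the tested members, while in TC+AC the E14 value was 1.66-fold below that at E12. AACS, which activates acetoacetate for lipid synthesis, had 149 and 144 at E12 and 284 and 147 at E14. After quantile normalization, 3 arrays were thus close together and TC at E14 stood alone. The log2 stage difference in TC+AC, 0.03 there, was -1.36 as deposited, -0.57 with arrays centred and -1.21 on hybridization controls. The other probe set of AACS had 39.3 and 34.9 at E12 and 78.9 in TC at E14. It was below background in TC+AC at E14. The enzymes that supply and commit acetyl-CoA were highest in TC at E14 on hybridization controls alone among the 4 scalings: ACLY, ATP citrate lyase, had 199.8 and 258 at E12 and 244 and 199.8 at E14, and ACACA, acetyl-CoA carboxylase, had 61.5 and 45.6 at E12 and 41.9 and 50.3 at E14.

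Among elongases and desaturases, FADS2 showed the widest spread. FADS2, the front-end desaturase that opens the path to long polyunsaturated fatty acids, had an intensity of 38.1 in TC and 25.9 in TC+AC at E12 and of 203 and 26.3 at E14. The TC value at E14 was 5.33-fold above that at E12. After quantile normalization, the TC+AC values at the 2 stages differed by 1.01-fold and lay little above background. FADS1, the neighbouring desaturase gene in the RefSeq annotation with 0 genes listed between them, had 28.8 and 35.7 at E12 and 36.1 and 47.2 at E14 and so was highest in TC+AC at E14 on its brightest probe set after quantile normalization, though highest in TC at E14 as deposited and on hybridization controls, while its other probe set exceeded background on a single array, TC at E14 (32.6). ELOVL5, the elongase of polyunsaturated chains, had 345 and 406 at E12 and 656 and 313 at E14, and ELOVL6, the elongase of palmitate, had 46.5 and 68.0 at E12 and 96.2 and 48.7 at E14. For both, TC at E14 was the high array on the brightest probe set. After quantile normalization, the other 3 were within 1.46-fold of each other. In TC+AC the log2 stage difference of ELOVL5, -0.38 there, was -1.8 as deposited, -1.01 with arrays centred and -1.64 on hybridization controls. That of ELOVL6, -0.48 there, was -1.62, -0.83 and -1.47. A dimmer probe set of ELOVL6 had 44.7 and 37.6 at E12 and 85.6 and 66.3 at E14. On it, TC+AC was also higher at E14 than at E12 after quantile normalization, though not as deposited (44.5 at E12 and 34.8 at E14). ELOVL1, which makes very long saturated chains, went another way after quantile normalization, with 179 in TC and 383 in TC+AC at E12 and 308 and 406 at E14. As deposited it had 346.8 in TC and 192.6 in TC+AC at E14. Its dimmer probe sets had 59.3 and 103 at E12 and 49.4 and 41.7 at E14, and 89.7 and 149 at E12 and 119.9 and 125 at E14. On each of its probe sets TC+AC was above TC at E12.

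Of the 6 tested genes of the mevalonate pathway, MVD and PMVK had their lowest value in TC at E14 after quantile normalization and with arrays centred, and in TC+AC at E14 as deposited and on hybridization controls. MVD, the decarboxylase that yields isopentenyl diphosphate, had an intensity of 172 in TC and 233 in TC+AC at E12 and of 93.4 and 196 at E14. PMVK, the kinase before it, had 221 and 169 at E12 and 142 and 211 at E14. HMGCS1, which makes hydroxymethylglutaryl-CoA, had 169 and 86.8 at E12 and 228 and 254 at E14. In TC+AC it was 2.92-fold higher at E14 than at E12 after quantile normalization, the largest stage difference of a tested member in that tissue, and its log2 difference of 1.55 was 0.17 as deposited, 0.97 with arrays centred and 0.33 on hybridization controls. On their brightest probe sets after quantile normalization, the thiolase gene ACAT2, the kinase gene MVK and the farnesyl diphosphate synthase gene FDPS differed little between stages. Their log2 stage differences lay between -0.31 and 0.50 in both tissues. In TC+AC they lay between -1.35 and -1.18 as deposited, -0.56 and -0.38 with arrays centred, and -1.20 and -1.02 on hybridization controls. The other probe set of MVK had a log2 stage difference of -0.9 in TC, opposite in sign to the 0.50 of its brightest. The median log2 difference between E14 and E12 in TC was -0.21 for the mevalonate genes, 0.36 for 8 sterol branch genes, 1.07 for 5 sensing and transfer genes, 0.93 for 5 genes of acetyl-CoA and fatty acid synthesis and 0.93 for 5 elongation and desaturation genes, against -0.13 for all genes.

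Of the other 4 members, CYP51A1, SREBF1, ACSS2 and SCD, each was at or below background on at least 1 array and was left out of the test with the dimmest 40% of genes. CYP51A1, lanosterol demethylase, had an intensity of 37.0 in TC and 33.5 in TC+AC at E12 and was below background on both E14 arrays, at least 2.38-fold lower in TC and at least 1.36-fold lower in TC+AC. In TC it was thus lower at E14 where MSMO1, which acts later in the same branch, was higher. In TC+AC the log2 stage difference of MSMO1 was 1.08 after quantile normalization and 0.44 with arrays centred. It was -0.35 as deposited and -0.19 on hybridization controls. SREBF1, the factor gene of fatty acid synthesis, was above background in TC+AC at E12 alone (32.1, at least 1.71-fold above TC), on 1 of its 3 probe sets, with the other 2 below background on all arrays. SCD, the stearoyl-CoA desaturase, was above background in the TC arrays alone (24.3 at E12 and 16.7 at E14). Its 16.7 lay little above the background of that array, 15.6, and below that of the other arrays, 18.8 to 24.6. No tissue difference of SCD at E14 could therefore be bounded. ACSS2, which activates acetate, had 38.2 in TC and 43.1 in TC+AC at E12 and 36.2 in TC at E14. Its brightest probe set was below background in TC+AC at E14. Dimmer probe sets were above it there, with 28.4 in TC and 34.6 in TC+AC at E14 on one and 19.9 and 27.1 on another. As deposited these were 33.2 and 20.9, and 23.1 and 17.0. A further probe set of ACSS2 was below background on all arrays.

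The comparison of E14 with E12 asks what maturation adds in each tissue. In TC, 8 of 29 members were at least 2-fold higher at E14 (27.6%), against 8.3% of all genes tested, and 0 of 29 were at least 2-fold lower, against 14.1%. The 8 were MSMO1, INSIG1, INSIG2, STARD4, FASN, ELOVL6, FADS2 and ME1. This difference is between 1 array and 1 array, so it has no replicate check and no test. The median log2 difference of the members was 0.43, against -0.13 over all genes, and 22 of 29 were above 0 against 43.4% of all genes. In TC+AC, 3 of 29 members were at least 2-fold higher (HMGCS1, FDFT1 and MSMO1), or 10.3% against 4.71% of all genes, and 0 were at least 2-fold lower against 7.92%. The median there was 0.16 against -0.05. Directions in TC+AC depend on the scaling of its E14 array: the medians of members and of all genes were -1.09 and -1.34 as deposited, -0.30 and -0.55 with arrays centred and -0.94 and -1.19 on hybridization controls, and 0 members were then at least 2-fold higher. Counted from the median of all genes, 3 were at least 2-fold higher under each of these 4 scalings, with SC5D (1.07) in place of MSMO1 under the 3 other than quantile normalization, against 5.46% of all genes after quantile normalization and 6.11% to 6.12% in the others. MSMO1 in TC+AC had a log2 stage difference of -0.35 as deposited, 0.44 with arrays centred and -0.19 on hybridization controls, and 0.99 above the median of all genes in each. MSMO1 was the only member at least 2-fold higher at E14 in both tissues after quantile normalization (0.897% of all genes were).

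Over both tissues together, 0 of 29 members passed the stage test at an adjusted p of 0.05 by limma, against 0.256% of all genes tested, and 3 had an unadjusted p under 0.05 (MSMO1, INSIG1 and FADS2), or 10.3% against 6.91%. INSIG1 had a fitted log2 difference of 1.40 ± 0.51 (adjusted p = 0.42), MSMO1 one of 1.31 ± 0.50 (adjusted p = 0.47) and FADS2 one of 1.22 ± 0.54 (adjusted p = 0.64). For FADS2 that fitted value averages 2.41 in TC and 0.02 in TC+AC. Over the settings of scaling, filter, floor and probe set summary that kept the gene, the log2 difference in TC lay between 2.41 and 3.02 for ME1, 2.36 and 2.97 for FADS2, 1.88 and 2.51 for INSIG1 and 1.13 and 1.74 for FASN. The count of 8 moved to 14 with arrays scaled on hybridization controls, where 21.9% of all genes were at least 2-fold higher. Counted from the median of all genes, 9 of 29 were at least 2-fold higher under that scaling, as deposited and with arrays centred, and 10 after quantile normalization, against 10.7% of all genes in each. The median of all genes in TC was 0.39 on hybridization controls.

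**Figure D2:**
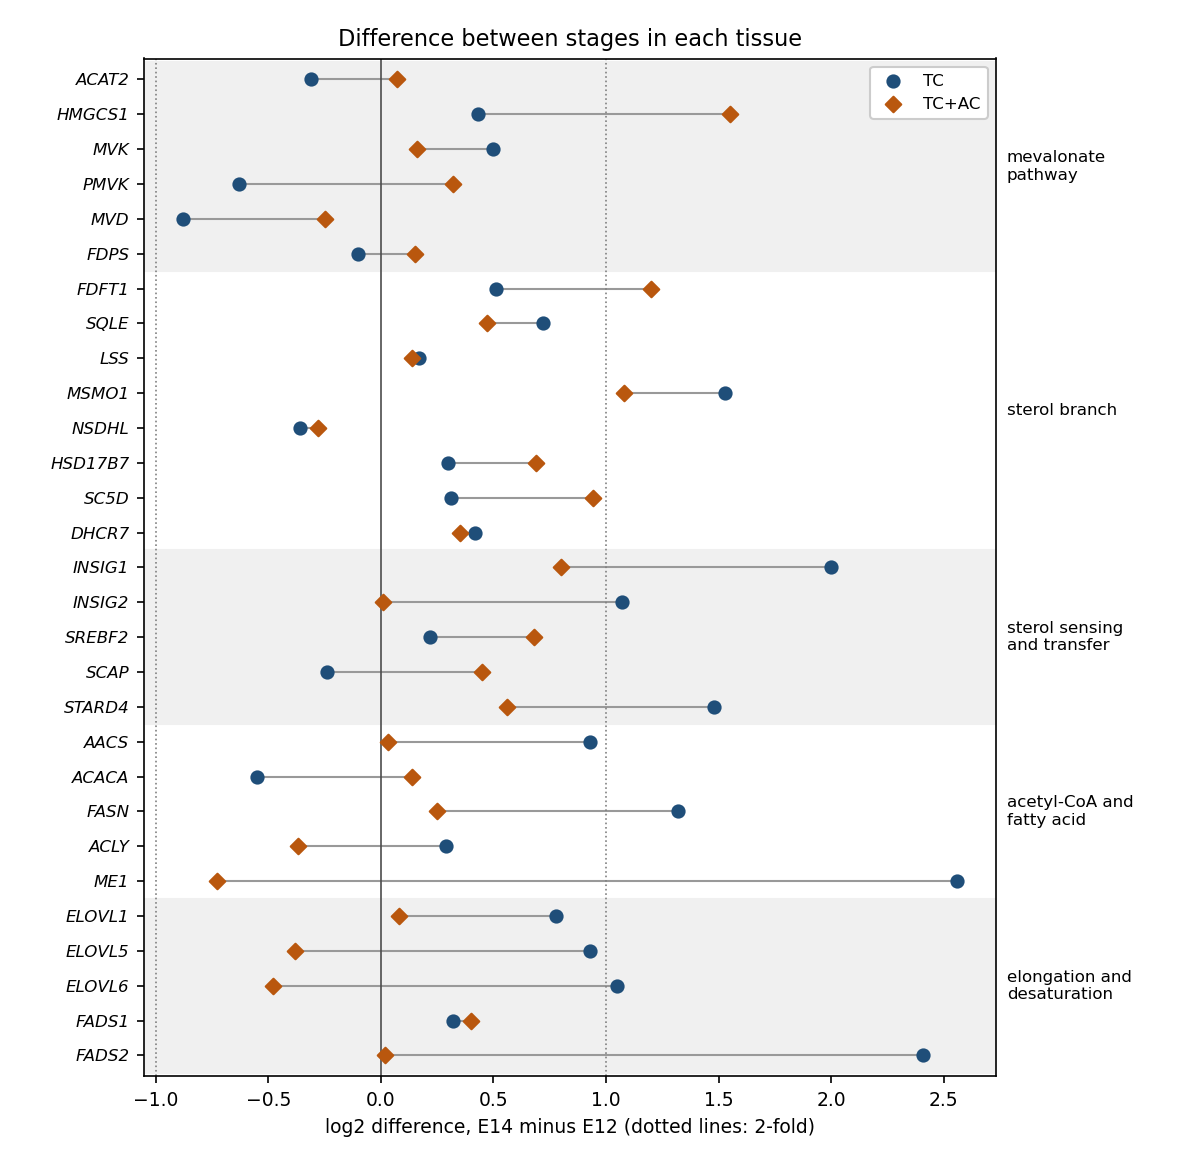
Log2 difference between E14 and E12 after quantile normalization for the 29 tested genes, in TC (circles) and TC+AC (diamonds), with dotted lines at 2-fold. The circles of ME1, FADS2 and INSIG1 reach 2.56, 2.41 and 2.0, while the diamonds of these genes lie at -0.73, 0.02 and 0.80.

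The comparison of TC+AC with TC at each stage shares the TC arrays with the comparison above. At E12 the members differed little: 1 of 29 was at least 2-fold lower in TC+AC (MSMO1), or 3.45% against 3.28% of all genes, and 1 was at least 2-fold higher (ELOVL1, 2.14-fold), against 4.46%. The median was -0.11 on the log2 scale against 0 for all genes. At E14, 7 of 29 were at least 2-fold lower in TC+AC (24.1%), against 15.6% of all genes, and 1 was at least 2-fold higher (MVD, 2.10-fold), against 20.3%. The log2 difference of MVD, 1.07 here, was 0.62 with arrays centred, -0.20 as deposited and -0.75 on hybridization controls, and 0.89 above the median of all genes in each of those 3. The 7 were MSMO1, INSIG1, STARD4, FASN, ELOVL5, FADS2 and ME1. FADS2 was 7.73-fold lower, ME1 5.51-fold, STARD4 3.51-fold, FASN 3.49-fold and INSIG1 2.95-fold, with no replicate check.

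By limma over both stages, FADS2 had a fitted tissue difference of -1.75 ± 0.54 (adjusted p = 0.1), STARD4 one of -1.35 ± 0.50 (adjusted p = 0.19), FASN one of -1.27 ± 0.51 (adjusted p = 0.23) and ME1 one of -0.82 ± 0.58 (adjusted p = 0.58). None of these passed the test. At an unadjusted p under 0.05, 4 of 29 members did (MSMO1, FADS2, STARD4 and FASN), or 13.8% against 13.4% of all genes. Without the TC array at E12, in a fit with no stage term and with TC at E14 as its lone TC array, 6 members were called (those 4, INSIG1 and ME1), against 883 genes or 11.3% of all tested. The sizes at E14 depend on how the dim TC+AC array is scaled, since the median of all genes was 0.05 after quantile normalization, -0.27 with arrays centred, -1.09 as deposited and -1.64 on hybridization controls. Members at least 2-fold lower numbered 12, 19 and 27 under the last 3 of these, where 24.1%, 53.7% and 72.6% of all genes were. Counted from the median of all genes, 9 were lower under each of the 3, against 16%, 15.9% and 16% of all genes, and 10 after quantile normalization, against 17%. At E14 the 6 mevalonate genes had a median log2 difference of 0.42 after quantile normalization, 0 with arrays centred, -0.82 as deposited and -1.37 on hybridization controls. Relative to all genes that median was 0.37, 0.27, 0.27 and 0.27, and relative to all genes the elongation and desaturation genes had -1.03, -0.95, -0.95 and -0.95. The part of RNA quality in the tissue differences at E14 was not tested. The stage difference in TC comes from the arrays with beta-actin ratios of 3.26 and 1.99.

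**Figure D3:**
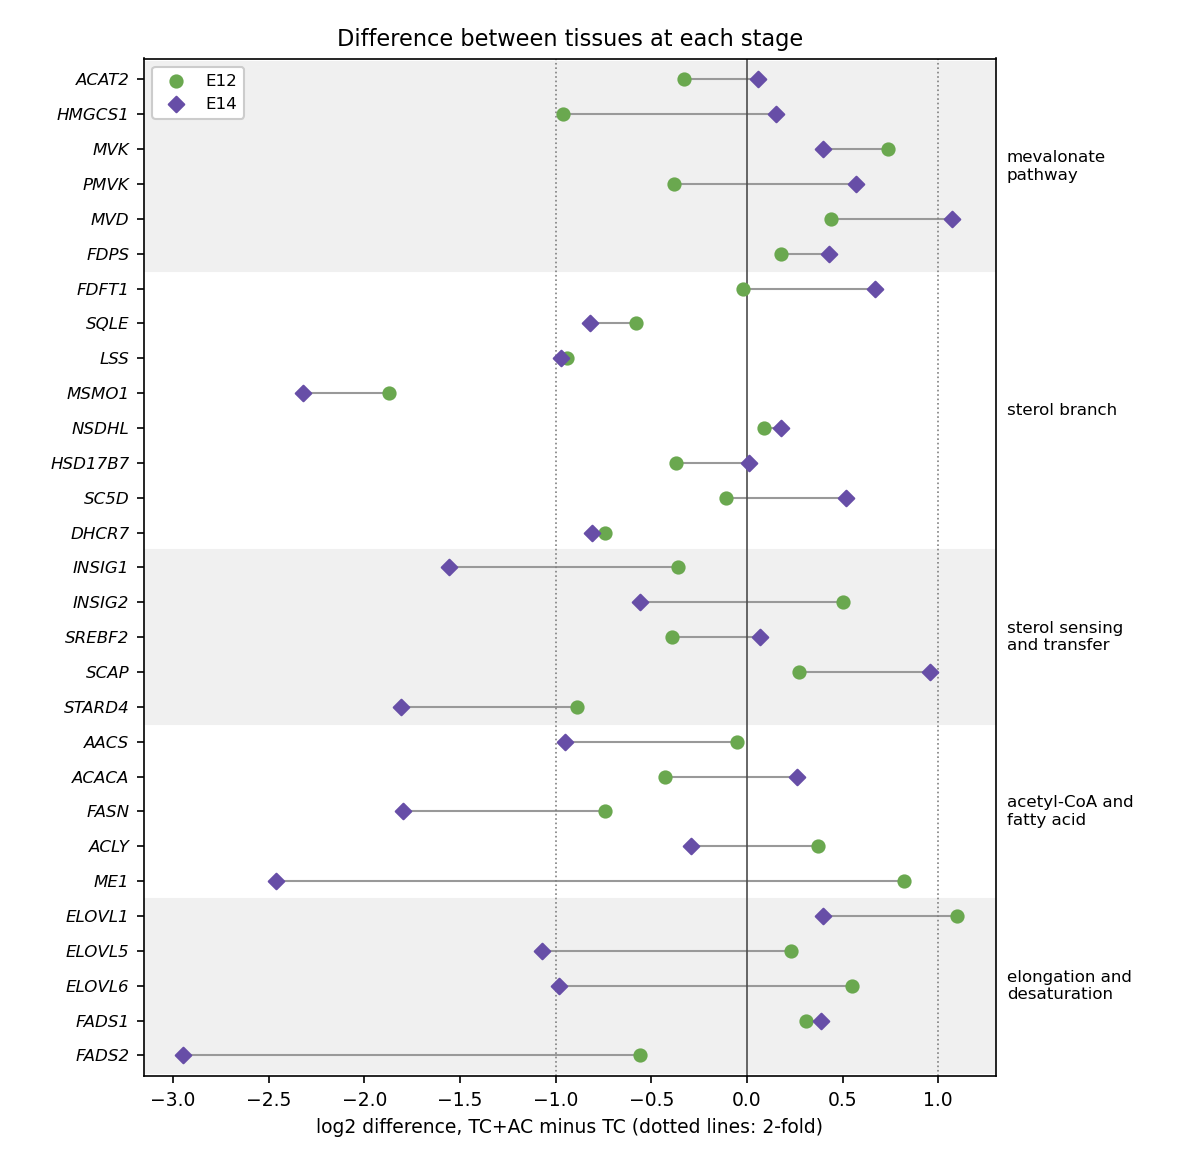
Log2 difference between TC+AC and TC for the 29 tested genes at E12 (circles) and E14 (diamonds), with dotted lines at 2-fold. MSMO1 lies at -1.87 and -2.32, and FADS2, ME1, STARD4 and FASN move from between -0.89 and 0.82 at E12 to between -2.95 and -1.80 at E14.

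Further probe sets of the same genes gave the stage difference in TC the same sign, and the tissue difference at E14 mostly so. Of the 8 genes at least 2-fold higher at E14 in TC, 4 had further probe sets above background on both TC arrays, and all 6 of these probe sets were higher at E14, 3 of them at least 2-fold. The second probe set of FASN had a log2 difference of 1.32, equal to that of the first, and the others of INSIG1 had 1.48 and 2.16. The second of STARD4 had 0.87, and those of ELOVL6 had 0.94 and 0.18. For the tissue difference at E14, 4 further probe sets were above background on both arrays, and 3 had the sign of the brightest, 2 of them at least 2-fold. The second probe set of FASN had -1.98 and that of ELOVL5 -1.79, against -1.80 and -1.07 on the brightest. That of STARD4 had -0.12 against -1.81, and one of INSIG1 had 0.07 against -1.56. The other of INSIG1 was 218 in TC and below background in TC+AC, a log2 difference of -3.15 with the background in its place, so it had the direction of the brightest. MSMO1, INSIG2 and ME1 had 1 probe set each, and the second of FADS2 was below background on all arrays. Over all tested members, 17 dimmer probe sets of 13 genes were above background on both TC arrays. Of these, 15 had the sign of the brightest, and 7 had a higher and 10 a lower stage difference than it. The highest was 2.16 (INSIG1) and the lowest -0.97 (ACAT2, against -0.31). For the tissue difference, 9 of 13 dimmer probe sets above background on both arrays had the sign of the brightest at E14, and 11 of 17 at E12. For the stage difference in TC+AC, 8 of 12 had it.

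**Figure D4:**
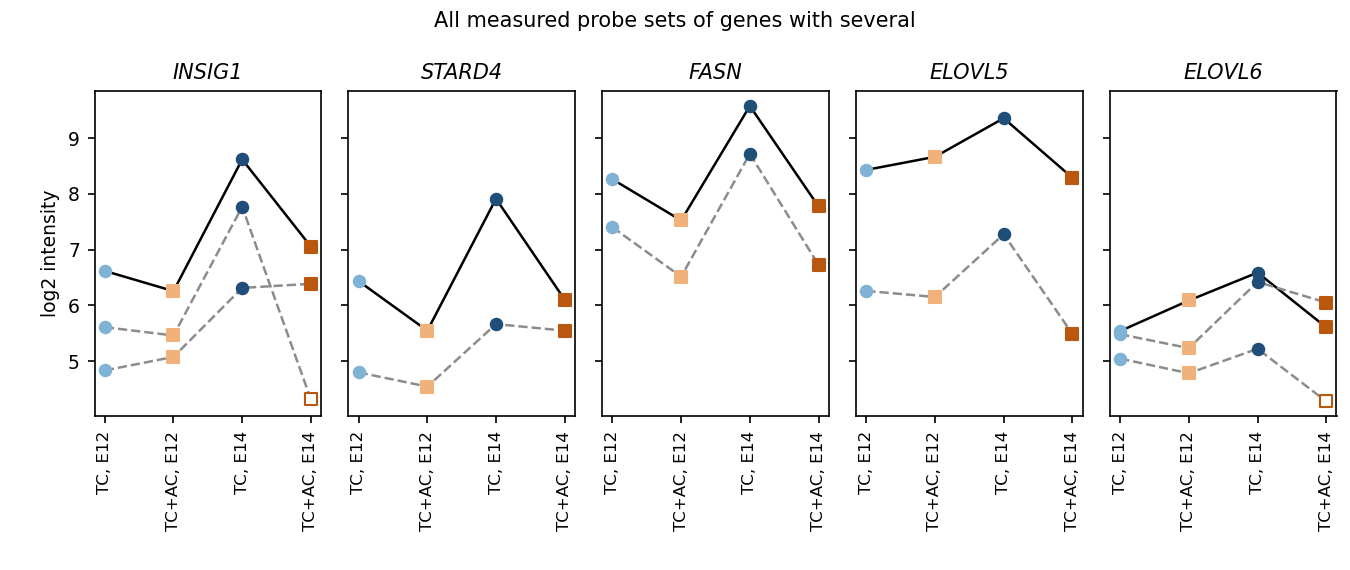
Log2 intensity on the 4 arrays for each probe set of the 5 genes that differed 2-fold between stages in TC or between tissues at E14 and had further probe sets above background (solid line the brightest, dashed the others, open symbols at or below background, circles TC, squares TC+AC). In every panel the lines are higher in TC at E14 than in TC at E12; at E14 the probe sets of FASN and ELOVL5 drop together from TC to TC+AC, while 1 of INSIG1 and 1 of STARD4 stay nearly level.

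Markers of other cell types differed between the same arrays. The summed intensity of 9 skeletal muscle markers was 993 in TC and 728 in TC+AC at E12, and 180.4 and 734 at E14, with MYLPF, MYOG and MB below background on all arrays. That of 6 erythroid markers was 17870 and 18927 at E12, and 9068 and 18228 at E14. The cartilage markers went in the opposite direction in TC, with 16963 at E12 and 44068 at E14, against 13094 and 23376 in TC+AC. Of 6 adipocyte markers, PLIN1 and PPARG were below background on all arrays, and the sum was 169 and 200.2 at E12 and 339 and 345 at E14. Of these, LPL, lipoprotein lipase, had 45.4 and 50.1 at E12 and 194 and 42.6 at E14, and CEBPA exceeded background on 1 array, TC at E14 (48.2). ADIPOQ and FABP4 were instead highest in TC+AC at E14 (162 and 109.9). The part of these tissue mixtures in the members' values was not tested.

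Of 26 further genes of lipid synthesis, 21 were on the array and 11 were tested, and 0 were at least 2-fold higher in TC at E14 than at E12 while 3 were at least 2-fold lower, against 8.3% and 14.1% of all genes. By limma, 0 of the 11 passed the tissue or the stage test, against 1.47% and 0.256% of all genes tested. An unadjusted p under 0.05 was reached by 2 and 0 of the 11, against 13.4% and 6.91% of all genes. ACSL3, which activates long-chain fatty acids, had the largest difference among them at E12, with 71.2 in TC and 30.6 in TC+AC and with 119 and 46.0 at E14, and DBI, which binds acyl-CoA, the largest at E14, with 184 and 164 at E12 and 77.5 and 272 at E14. Of 10 tested genes of sterol uptake, storage and efflux, 0 passed either test by limma (3 and 0 at an unadjusted p under 0.05). SCARB1, the lipoprotein receptor, had 22.5 and 65.5 at E12 and 24.6 and 46.2 at E14, and APOA1, the main protein of high density lipoprotein, had 272 and 666 at E12 and 223 and 699.8 at E14. Both were above in TC+AC at both stages. Of 8 tested genes of fat storage, FABP3, a fatty acid binding protein gene, passed as higher in TC+AC, and 0 passed for stage (4 and 0 had an unadjusted p under 0.05). Of 8 tested genes of fatty acid oxidation, 0 passed either test by limma (0 and 2 at an unadjusted p under 0.05). ACAA2, a thiolase of mitochondrial oxidation, had the largest tissue difference there at each stage, with 1657 in TC and 922 in TC+AC at E12 and 805 and 391 at E14.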

How the data were processed

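RNA from 4 chicken cartilage pools was measured on 1 Affymetrix chicken array each. The authors deposited 1 linear intensity per probe set and array; the software and normalization behind it are stated in no source used here. Deposited intensities of 38439 probe sets, without 96 control probe sets, were quantile normalized, floored at their 20th percentile (4.275) and turned into log2 values. Probe sets were named from the platform annotation, which gave 1 symbol for 27178, several for 177 and none for 11180. The brightest stood for each of 13009 genes, and the dimmest 40% by mean were left out. The array build is not given here, and RefSeq's GRCg7b served only for neighbouring genes.

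limma 3.58.1 in R 4.3.3 fitted tissue and stage as additive terms over the 4 arrays, with Benjamini-Hochberg adjustment over 7805 genes and a threshold of 0.05. With 1 array per combination, 1 residual degree of freedom remained against 27 prior ones, so the p-values borrow their spread from other genes, and differences within a stage or tissue have no test. The number of arrays limits the precision. The fit was run on simulated data with noise drawn from its own prior variance and a tissue effect equal at both stages. Such data cannot show how the fit handles effects that differ between stages or an array that is scaled differently. Members, lists and the 2-fold threshold were chosen with earlier results of these data known. Every member may be named, and of the related lists any gene past a test and the gene with the largest tissue difference at each stage. Alternatives changed the scaling, the filter, the floor, the probe set and the stage term, or left out 1 array. Counts of 2-fold differences and of genes highest on 1 array, their alternatives and the next brightest probe set were added after seeing the data. Figures were drawn with matplotlib 3.10.9 in Python 3.11.15.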

Additional observations from a re-analysis of the deposited data

Results flagged for a closer look

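ME1, the cytosolic malic enzyme gene, differed in opposite directions under the same contrast. TC+AC was above TC by 0.82 on the log2 scale at E12 and below it at E14 (-2.46). The difference between E14 and E12 was 2.56 in TC and -0.73 in TC+AC. Each value compares 1 array with 1 array, and the difference between the contrasts was not tested. The 1.5-fold size asked of each value was chosen after the values were seen.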

How the results depend on the processing

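The count of members called for tissue, 1 in the report, was 0 with values as deposited, with arrays scaled on hybridization controls, with no gene left out, with the mean of probe sets, with the next brightest probe set and without the stage term. It ranged from 0 to 6 when 1 array was left out, the 6 without TC at E12, where 883 of all genes were called against 115. It was 1 with arrays centred, with the lowest 60% of genes left out and with the floor at background. There, 1.95%, 4.17% and 2.06% of all genes tested were called. With the lowest 60% left out, 22 members were tested. In the settings on all 4 arrays where the member count was 0, at most 0.41% of all genes were called. The stage count of members was 0 in every setting named here. The members' median tissue difference at E14 was -1.18 as deposited and -1.73 on hybridization controls; the median stage difference was 0.94 in TC on hybridization controls, and in TC+AC -1.09 as deposited and -0.94 on hybridization controls. The medians of all genes were then -1.09 and -1.64, 0.39, and -1.34 and -1.19. Members at least 2-fold lower in TC+AC at E14 numbered 19 as deposited, 12 with arrays centred and 27 on hybridization controls (53.7%, 24.1% and 72.6% of all genes), those at least 2-fold higher at E14 in TC 14 on hybridization controls (21.9%), and those highest in TC at E14 27 on hybridization controls (60.8%). FADS2's fitted stage difference ranged from -0.26 without TC at E14 to 2.69 without TC+AC at E14, in fits with no tissue term. Only the MSMO1 tissue fit was called among the members in the report, and that call was lost in 9 recomputed fits. The other member fits began uncalled, so staying on the same side of the threshold says little about stability. Of 726 recomputed member fits, 711 stayed on the same side, besides the FADS2 stage fit without TC at E14. That fit changed sign without being called, as did 95 of the 711. No paired analysis was possible because each combination of tissue and stage is 1 array and the labels carry no replicate numbers.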
